A study of Mus musculus with 90 samples.

Results

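The comparison described here is that of livers from fed mice given dexamethasone together with S961 against livers from fed mice given S961 alone, across all genes of the table. S961 is a peptide that blocks the insulin receptor, and dexamethasone (dex) is a synthetic agonist of the glucocorticoid receptor (GR), so the comparison asks what glucocorticoid does to liver RNA while insulin action is blocked. It rests on 8 of the 54 RNA libraries, 4 per group, chosen by the titles of the samples, and the whole series holds 90 samples. Of 24308 gene symbols, 11248 had a mean of at least 0.5 RPKM (reads per kilobase of transcript, scaled to the mapped reads of the library) over the 20 libraries of injected mice and were tested, and the other 13060 were not.

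All 20 mice of the injection experiment were C57BL/6N males, 10 weeks old, kept under night-restricted feeding for 4 days and killed at zeitgeber time (ZT) 14, early in the dark phase. They were injected 30 minutes before ZT12 with phosphate-buffered saline (PBS), dex at 1 mg/kg, S961, or dex and S961 together, and fed from ZT12. The remaining group received PBS and no food. A dose of 44 is given for S961, per kilogram in nmol in the methods and as nM per mouse in the labels. For some of these libraries the treatment field carries a running number in place of that of S961, while all titles and descriptions read S961. Each library is 1 mouse, and the labels give the 4 libraries of a group as replicates 1 to 4. A separate set of 8 unfed GR fl/fl mice, 4 injected with AAV-CRE driven by a hepatocyte promoter and 4 with AAV-GFP, was used to look up the same genes.

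GR is a nuclear receptor that moves to chromatin once bound by glucocorticoid and raises or lowers transcription of nearby genes. In liver it is known for inducing enzymes of gluconeogenesis and of amino acid breakdown, together with feedback genes found in most tissues. Insulin acts the other way on many of these genes, mainly by keeping the forkhead factor FOXO1 out of the nucleus, so that blocking the insulin receptor frees FOXO1 while food is present.

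Before the results, 4 facts of the libraries bear on them. By the value of 1 read in genes of low level, the 8 libraries were sequenced to between 0.673 and 1.127 times the depth of S961 replicate 1, and no pair of libraries held identical values. The lowest correlation in the comparison was that of S961 replicates 3 and 4 (r = 0.943 over log2 values of the tested genes), against 0.967 or more among the 4 dex + S961 libraries. Library numbers put replicate 4 of each group in another series than replicates 1 to 3. The liver label held: albumin had the highest RPKM in all 8 libraries. The summed level of 10 hepatocyte markers, as the mean of log2(RPKM + 0.5), lay between 10.71 and 11.01 in the S961 group and between 11.07 and 11.20 with dex (difference 0.26, two-sided exact permutation test p = 0.0286, the smallest that 4 against 4 allows). That list contains Tat and Pck1, which rose and are treated below, so its summed level and p-value include their response to dex. The other 8 hepatocyte markers were not called, and the median log2 change of the 10 was 0.06. Of the markers of Kupffer cells, 11 of 12 were tested, none was called, and their summed level overlapped (2.41 to 3.18 against 2.75 to 3.38, exact permutation p = 0.543), S961 replicate 3 being the lowest. The markers of antigen presentation behaved likewise (2.01 to 2.89 against 2.69 to 3.13, exact permutation p = 0.114). None of the 9 endothelial, 7 stellate cell, 2 cholangiocyte, 7 red blood cell and 2 neutrophil markers tested was called. B cell and adipocyte markers were all under the limit for testing, as were 11 of 12 T and NK cell markers, and Adipoq, Lep, Retn and Ly6g were at 0 in all 8 libraries. The part of cell composition in the results was not tested, and in whole liver fewer cells of a type and less RNA per cell cannot be told apart.

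Neither receptor gene was called. Nr3c1, which encodes GR, stood at 14.8 ± 3.79 RPKM with S961 and 11.8 ± 2.10 with dex + S961 (SD, n = 4 each, log2 difference -0.29, limma adjusted p = 0.684). Insr, the insulin receptor, stood at 19.7 ± 3.08 and 17.9 ± 1.83 RPKM. The S961 mice differed from fed PBS mice in G6pc, the glucose-6-phosphatase gene that insulin represses, at 233 ± 56.4 against 70.9 ± 29.9 RPKM (limma adjusted p = 0.0083).

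A small part of the liver transcriptome was called for dex on top of S961, with the larger changes upward. At a limma adjusted p under 0.05, 117 genes rose (1.04% of those tested) and 98 fell (0.871%), 1.91% in all. An unadjusted limma p under 0.05 was reached by 1357 genes (12.1%), so the calls need not be all the genes that changed. The rises had a median log2 change of 0.95 and reached 3.07, and 55 of them exceeded 1. The falls had a median of -0.76 and reached -2.30, and 21 exceeded 1 in size. The 4 and 4 values did not overlap for 114 of the 117 rises and 94 of the 98 falls, and for 6.85% of all tested genes (2.12% higher and 4.74% lower). The genes were called on these same values, which favours such a separation, so it does not bear on the calls. Same-numbered mice of the S961 and dex + S961 groups deviated together (r = 0.113 to 0.594), though a pairing rests on these values alone. The highest was that of replicate 4, which lies in another library series, and the part of that series was not tested. With the replicate number as a block over all 5 injected groups, the counts were 204 rises (1.81%) and 264 falls (2.35%). Scaling the libraries by median ratios gave 173 rises and 63 falls, and quantile normalization 141 and 65, so the balance of directions depends on the scaling. Without S961 replicate 3 the counts were 80 and 62, and without replicate 4 of every group 156 and 125. With the library series as a term they were 215 and 280.

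**Figure D1:**
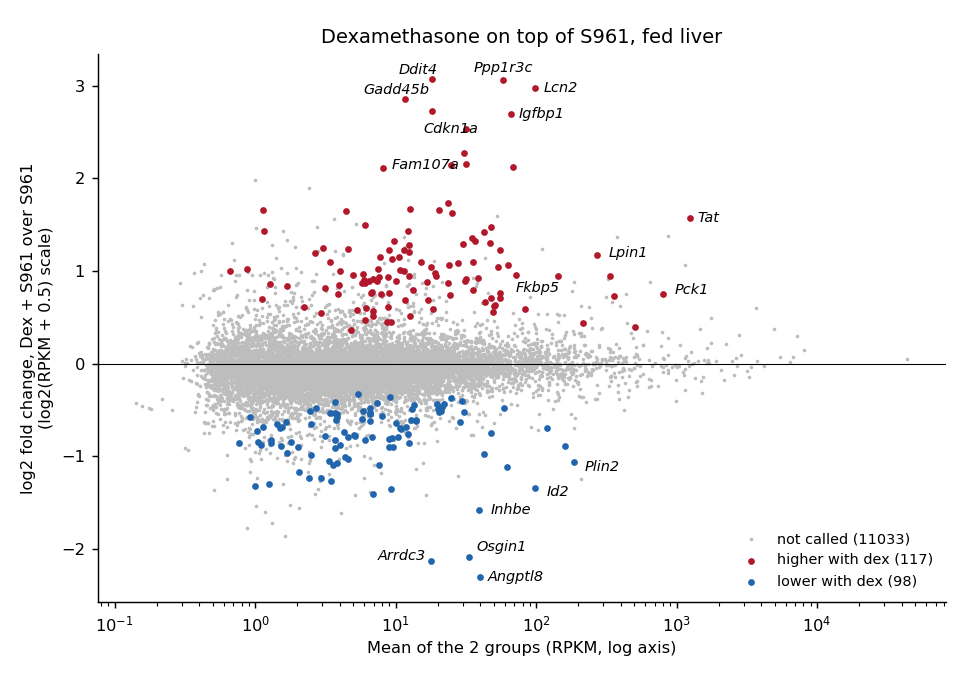
Each point is 1 of the 11248 tested genes. The x axis is the mean of the S961 and the dex + S961 groups in RPKM on a log axis, and the y axis the log2 fold change of dex + S961 over S961. The 117 genes that rose (red) reach 3.07 and the 98 that fell (blue) reach -2.30.

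Established targets of GR made up the list with the most rises. The list was chosen with earlier results of these data known, and it holds Fkbp5, Tat and Klf15, which the study names for dex. Of 31 such genes, all of them tested, 16 rose, 15 were not called and none fell (Cdkn1a, Ddit4, Dusp1, Errfi1, Fam107a, Fkbp5, Gadd45b, Gadd45g, Klf15, Lcn2, Lpin1, Nfkbia, Sgk1, Tat, Tsc22d3 and Usp2). Their median log2 change was 0.95, against -0.06 over all tested genes, and 29 of the 31 had a positive estimate. Over all tested genes, 1.04% rose and 0.871% fell. Fkbp5, the co-chaperone that dampens GR in a feedback loop, read 42.9, 59.2, 52.8 and 41.0 RPKM in the 4 S961 mice and 96.9, 98.1, 96.2 and 86.0 in the 4 dex + S961 mice. The groups lay far apart relative to their spread (log2 change 0.95 ± 0.18 SE, limma adjusted p = 0.00513). Ddit4, an inhibitor of mTOR complex 1 also called REDD1, read 3.32, 5.57, 1.93 and 3.27 RPKM with S961 and 34.9, 44.2, 20.7 and 31.3 with dex added. This was the largest rise among all genes called, at 3.07 ± 0.29 on the log2 scale (limma adjusted p = 1.31e-05), an 8.41-fold change. Cdkn1a, the cell cycle inhibitor p21, went from 4.10, 15.3, 7.20 and 10.9 to 42.8, 64.6, 32.8 and 76.2 RPKM (log2 change 2.54 ± 0.34, limma adjusted p = 0.000244). Even its lowest dex value was above the highest S961 value. Lcn2, the acute-phase lipocalin 2, varied most: it read 21.0, 101, 11.5 and 5.23 RPKM with S961 and 229, 190, 94.9 and 138 with dex (log2 change 2.98 ± 0.64, limma adjusted p = 0.0165). S961 replicate 2 overlapped the dex group for this gene, and the call is lost without S961 replicate 3 or 4, without dex + S961 replicate 1 or 2, without replicate 4 of every group, and with the 2 groups fitted alone.

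Not every familiar target passed. Per1, a clock gene with a glucocorticoid response element, had a log2 difference of 0.53 (limma adjusted p = 0.509), and Zbtb16 one of 0.54 (limma adjusted p = 0.342). Angptl4, which encodes an inhibitor of lipoprotein lipase, was at 102 ± 29.8 RPKM with S961 and 114 ± 13.5 with dex added, beside 32.1 ± 7.84 in fed PBS mice (dex + S961 against S961, limma adjusted p = 0.904). Bcl6 and Tgm2 had negative estimates, at -1.10 and -0.40 (limma adjusted p = 0.614 and 0.164), and 1 dex + S961 mouse read 10.9 RPKM for it while the other 3 read 2.19 to 2.63.

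Chromatin maps of the same study locate GR near most of the genes that rose. The maps list 10446 GR peaks of 180 bases each, called in unfed livers and kept where 2 replicates concurred, so they were not made in the mice compared here. Of the 113 genes that rose and have a position on mm9, 103 had a GR peak within 50 kb of the start site (91.2%, 95% Wilson interval 84.5 to 95.1). The share was 57 of 93 (61.3%, 51.1 to 70.6) for the genes that fell and 48.1% (47.2 to 49.0) for all 10760 tested genes with a position. The median distance to the nearest GR peak was 4317 bases for the genes that rose, 17266 for those that fell and 54687 over all. A GR peak that also overlapped a FOXO1 peak lay within 50 kb of 74.3% of the genes that rose, 34.4% of those that fell and 29.4% of all. The part of expression level and gene density in these shares was not tested.

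Some of these peaks hold the palindromic GR element, written here as GNACA, any 3 bases and TGTNC, which reads the same on both strands. It was found in 815 of the 10446 GR peaks (7.80%), in 51 of the 339 peaks within 50 kb of a gene that rose (15.04%, 95% Wilson interval 11.6 to 19.2), in 2 of the 106 near a gene that fell (1.89%, 0.52 to 6.62), and in 0.27% of 75067 DNase sites of the same window without a GR peak. A match is a description of the letters and not of binding. Such a peak lay within 50 kb of the start of 44 of the 113 placed genes that rose (38.9%), 3 of 93 that fell (3.2%) and 886 of all 10760 (8.2%). Of 25 rising genes of the target list or the 15 largest rises, 24 were placed and 16 of these had one outside untranslated regions. The 6 closest to a start site are shown. Binding of GR there in the mice compared here was not tested. Each sequence is the plus strand of mm9, 5′ to 3′, with the element in capitals.
Fkbp5, chr17:28654979-28655158, between genes, 600 bases upstream of the start: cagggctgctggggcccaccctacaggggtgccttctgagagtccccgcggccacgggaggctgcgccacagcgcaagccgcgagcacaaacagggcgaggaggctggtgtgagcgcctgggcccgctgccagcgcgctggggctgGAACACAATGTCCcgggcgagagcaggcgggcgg
Cdkn1a, chr17:29231549-29231728, in an intron of Cdkn1a, 3715 bases downstream of the start: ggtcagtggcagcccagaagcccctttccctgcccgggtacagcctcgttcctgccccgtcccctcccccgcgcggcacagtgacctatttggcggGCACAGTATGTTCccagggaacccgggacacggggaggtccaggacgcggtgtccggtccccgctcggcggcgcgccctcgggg
Nfkbia, chr12:56589747-56589926, between genes, 3797 bases downstream of the start: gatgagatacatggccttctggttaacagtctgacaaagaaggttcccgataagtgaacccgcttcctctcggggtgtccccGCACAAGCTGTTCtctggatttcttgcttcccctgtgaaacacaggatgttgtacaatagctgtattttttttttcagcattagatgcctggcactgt
Arrdc2, chr8:73357471-73357650, between genes, 6058 bases downstream of the start: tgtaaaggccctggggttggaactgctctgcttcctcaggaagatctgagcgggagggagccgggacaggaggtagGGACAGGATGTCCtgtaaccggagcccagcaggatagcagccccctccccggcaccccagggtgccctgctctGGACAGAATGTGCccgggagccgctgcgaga
Fam107a, chr14:9142315-9142494, in an intron of Fam107a, 8132 bases downstream of the start: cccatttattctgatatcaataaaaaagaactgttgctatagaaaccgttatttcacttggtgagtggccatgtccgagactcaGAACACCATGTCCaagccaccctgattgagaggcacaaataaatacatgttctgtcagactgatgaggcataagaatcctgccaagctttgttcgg
Klf15, chr6:90421287-90421466, in an intron of Klf15, 8807 bases downstream of the start: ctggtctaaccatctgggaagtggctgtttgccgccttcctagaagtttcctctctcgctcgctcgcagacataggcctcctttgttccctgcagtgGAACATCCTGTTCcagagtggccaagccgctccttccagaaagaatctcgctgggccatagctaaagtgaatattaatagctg
The Arrdc2 peak holds the element at 2 places and the other peaks at 1. The Cdkn1a peak also overlaps a FOXO1 peak. The Fam107a and Klf15 peaks overlap no DNase site, and the other peaks shown do.

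In the gluconeogenic list, Pck1 was the only gene called. It encodes the cytosolic phosphoenolpyruvate carboxykinase, the step from oxaloacetate into glucose synthesis, and it read 515, 914, 397 and 636 RPKM with S961 and 1194, 1064, 921 and 809 with dex added. S961 replicate 2 overlapped the dex group, and the call was at the threshold (log2 change 0.75 ± 0.19, limma adjusted p = 0.0499); it is lost in 12 of 20 alternatives, among them each of the 4 that leave out a dex + S961 mouse. That is 1 call among 16 gluconeogenic genes tested, too few to set against the 1.91% over all genes, and the list's median was 0.09. G6pc had the opposite sign, at 153, 258, 236 and 284 RPKM with S961 and 137, 135, 171 and 121 with dex added (log2 difference -0.70, limma adjusted p = 0.403). Its groups overlapped and the difference did not pass the test.

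Among genes of amino acid handling few were called. Tat, the tyrosine aminotransferase that is the classical glucocorticoid-induced liver enzyme, read 429.6, 1114, 428.8 and 695 RPKM with S961 and 2081, 1963, 1535 and 1760 with dex. It rose 2.96-fold with no overlap (log2 change 1.57 ± 0.22, limma adjusted p = 0.000438). It was the only call among 49 genes of amino acid breakdown, a share near the 1.91% over all genes, and the replicate block adds Csad (log2 change 0.55, limma adjusted p = 0.0383). Sds, the serine dehydratase, had a log2 difference of 0.89 with groups apart but missed the threshold (limma adjusted p = 0.0801, and 0.0571 with the replicate block). Among 14 amino acid transporters, Slc38a2 alone rose, from 25.4 ± 9.49 to 69.6 ± 15.2 RPKM (log2 change 1.48 ± 0.26, limma adjusted p = 0.00338). The block adds Slc7a2 among the transporters (0.53, limma adjusted p = 0.0133). None of the 8 urea cycle genes was called, and with the block Slc25a15 was higher (0.52, limma adjusted p = 0.00237).

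A list of FOXO targets, chosen as genes that insulin represses, had 8 calls among 24 tested, where 1.91% of all tested genes were called. Of the 24, Ccng2, Foxo1, Igfbp1, Klf15, Pck1 and Sesn1 rose, and Angptl8 and Gadd45a fell. Klf15 is also in the list of GR targets, and the call of Pck1 was at the threshold. Angptl8 goes against the list's name, since insulin and feeding induce it. The list's median log2 change was 0.17, and the replicate block adds Foxo3 (0.84, limma adjusted p = 0.0343). Igfbp1, a liver-secreted binding protein of insulin-like growth factors, read 7.58, 43.5, 7.37 and 21.3 RPKM with S961 and 108, 197, 79.0 and 62.8 with dex added (log2 change 2.70 ± 0.56, limma adjusted p = 0.0125, a call lost under 4 of 20 alternatives). Its mean of 112 ± 60.1 RPKM with both agents stood beside 119 ± 67.8 in unfed PBS mice, 41.6 ± 17.6 with dex alone and 6.25 ± 3.68 in fed PBS mice. Foxo1 itself rose from 9.62 ± 1.28 to 16.9 ± 1.00 RPKM, a modest change with a small spread (log2 change 0.79 ± 0.09, limma adjusted p = 4.43e-05). Sesn1 and Ccng2, a stress-induced inhibitor of mTOR complex 1 signalling and an atypical cyclin, rose by 1.16 and 1.150 on the log2 scale (limma adjusted p = 0.000334 and 0.00145). Irs2, the insulin receptor substrate that FOXO1 induces, was at 2.46 ± 1.79 and 2.11 ± 0.73 RPKM and was not called. Irs1, the other substrate, fell from 2.04 ± 0.32 to 1.08 ± 0.12 RPKM (log2 change -0.68 ± 0.16, limma adjusted p = 0.0321), the one call among 22 genes of insulin signalling, and lost under 10 of 19 alternatives. Ulk1 (0.29, limma adjusted p = 0.567) and Insig2 (0.35, limma adjusted p = 0.634) were not called.

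**Figure D2:**
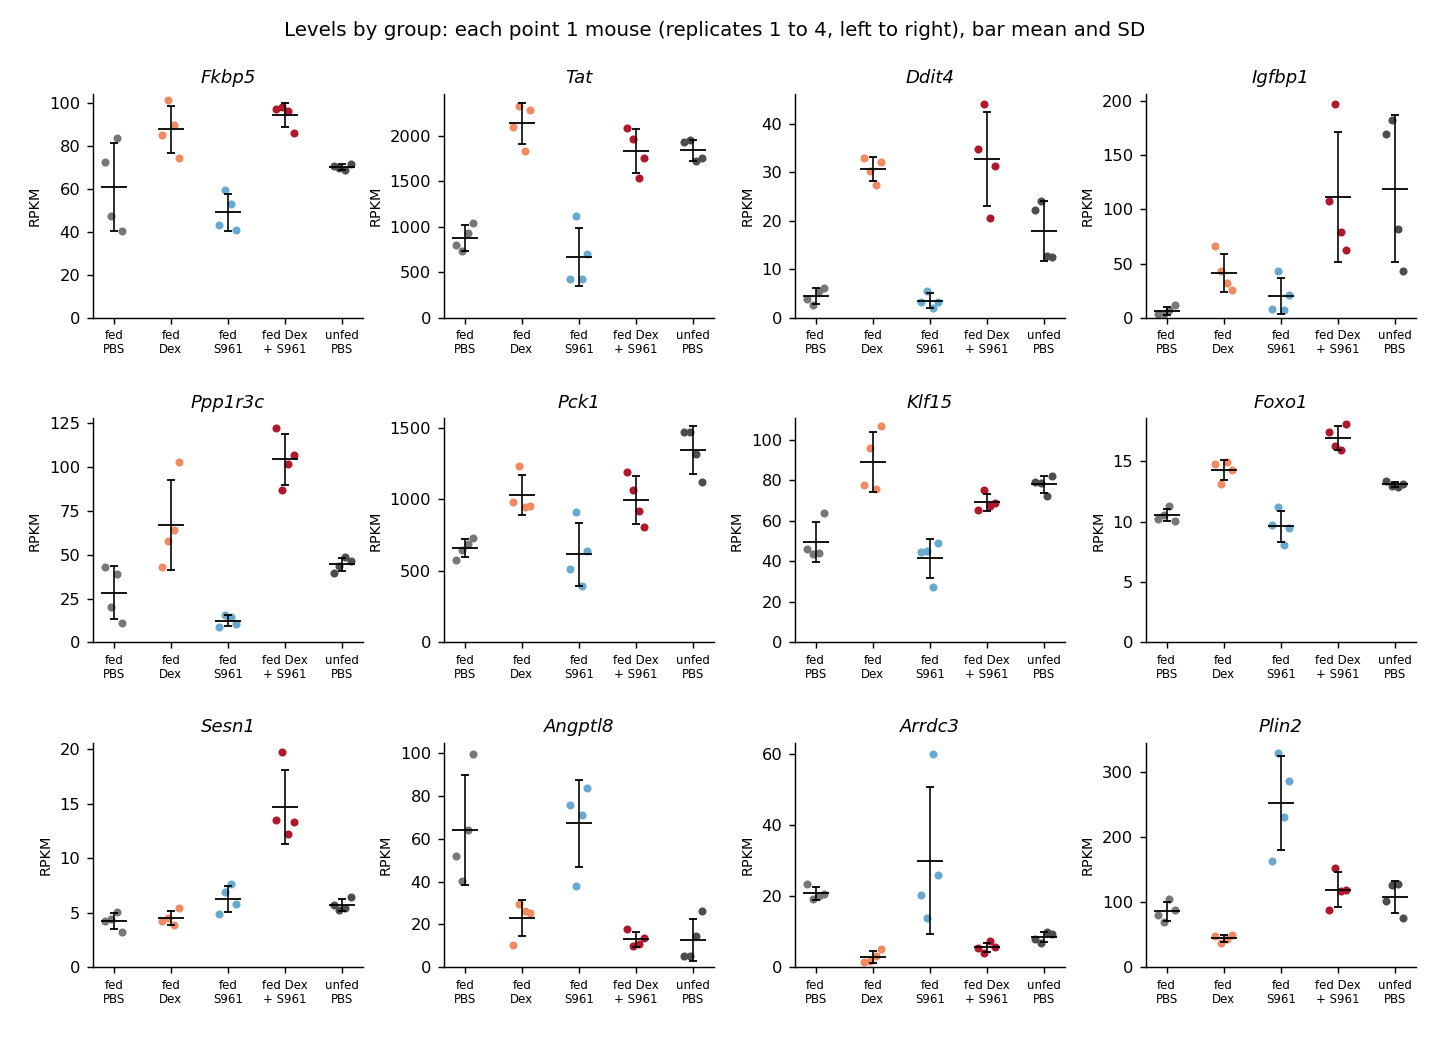
RPKM of 12 genes in the 5 injected groups, each point 1 mouse, with the mean and SD as a bar. Fkbp5, Tat, Ddit4 and Ppp1r3c are higher in all 4 dex + S961 mice than in all 4 S961 mice, while Angptl8, Arrdc3 and Plin2 are lower in all 4, and for Pck1 the groups overlap.

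Lipid genes moved in both directions. Angptl8, a hepatokine that insulin and feeding induce and that acts on lipoprotein lipase, had the largest fall of all, from 75.8, 38.01, 71.1 and 84.0 RPKM with S961 to 17.7, 9.87, 10.9 and 13.5 with dex added (log2 change -2.30 ± 0.44, limma adjusted p = 0.00633). All 4 dex + S961 mice were near the unfed level of 12.8 ± 9.92 RPKM. Lpin1, a phosphatidate phosphatase and transcriptional coactivator, rose from 171 ± 42.7 to 376 ± 11.04 RPKM (limma adjusted p = 0.00636). Dgat2, which makes triglyceride, rose by 0.44 on the log2 scale (limma adjusted p = 0.0422), a call that 9 of 20 alternatives lose. These were the 2 calls among 26 genes of fatty acid synthesis. The lipid droplet proteins Plin5 and Plin2 moved apart. Plin5 rose from 40.3 ± 5.64 to 85.3 ± 13.02 RPKM (log2 change 1.07 ± 0.12, limma adjusted p = 3.83e-05), and Plin2 fell from 163, 330, 231 and 287 to 88.1, 153, 116 and 118 RPKM (log2 change -1.06 ± 0.21, limma adjusted p = 0.00892). Plin2 was 85.8 ± 14.7 RPKM in fed PBS mice, so the S961 mice stood above and the dex + S961 mice nearer to that level. Ehhadh, a peroxisomal enzyme of fatty acid oxidation, fell by 0.89 (limma adjusted p = 0.0491) with overlapping groups, and 12 of 20 alternatives lose that call. Among 35 genes of fatty acid oxidation and ketogenesis, Plin5 was thus the only rise and Plin2 and Ehhadh the only falls. Over all tested genes 1.91% were called, and the lipid lists hold too few calls to set against that share. None of 25 cholesterol synthesis genes was called. With the replicate block Thrsp was higher (0.88) and Mlxipl and Vnn1 were lower (-0.65 and -0.71, limma adjusted p = 0.039, 0.0342 and 0.0256 for Thrsp, Mlxipl and Vnn1).

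Outside the metabolic lists, the largest rise after Ddit4 was that of Ppp1r3c, which targets protein phosphatase 1 to glycogen. It read 8.75, 15.4, 14.4 and 10.7 RPKM with S961 and 122, 87.0, 102 and 107 with dex added (log2 change 3.06 ± 0.32, limma adjusted p = 2.63e-05). The stress-response genes Gadd45b and Gadd45g rose by 2.86 ± 0.47 and 2.12 ± 0.48 (limma adjusted p = 0.00188 and 0.0268), the latter call being lost under 8 of 20 alternatives, whereas their relative Gadd45a fell by 1.29 on the log2 scale (limma adjusted p = 0.0117). Gadd45a shares exon sequence with a transcript annotated on the opposite strand. The same holds for Foxo1, Irs1, Ahr, Abcb11, Bhlhe40, Usp2 and Mid1ip1 among the called genes named here. Bcl2l1, which encodes the anti-apoptotic Bcl-xL, rose from 11.1 ± 4.62 to 36.02 ± 4.15 RPKM, Sgk1, a serum- and glucocorticoid-inducible kinase, from 5.70 ± 0.56 to 19.6 ± 4.86, and Fam107a from 8.95 ± 2.34 to 40.6 ± 4.79 (limma adjusted p = 6.35e-05, 0.00172 and 6.35e-05 for Bcl2l1, Sgk1 and Fam107a). Phf11c, Setdb2 and Gm45935 rose by 2.73, 2.16 and 2.27 on the log2 scale. Gm45935 is listed as a Setdb2-Phf11c fusion transcript, so reads of these neighbours could be split between them, and they count as 1 observation. The arrestin-domain genes went opposite ways, Arrdc2 up by 2.12 ± 0.29 and Arrdc3 down by 2.13 on the log2 scale (limma adjusted p = 0.000352 and 0.00148). Arrdc3 read 20.2, 13.8, 60.2 and 26.0 RPKM with S961 and 5.50, 4.01, 7.33 and 5.58 with dex added.

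The falls were led, beside Angptl8 and Arrdc3, by Osgin1, an oxidative stress-induced growth inhibitor, at 54.6 ± 11.9 against 12.4 ± 2.08 RPKM (log2 change -2.08 ± 0.29, limma adjusted p = 0.00044). Inhbe, the activin subunit made by hepatocytes, fell from 59.8 ± 21.5 to 18.9 ± 2.51 RPKM (limma adjusted p = 0.00654). Id2, an inhibitor of basic helix-loop-helix factors, was the most uniform of them: 136, 146, 146 and 138 RPKM with S961 and 68.0, 50.1, 54.9 and 51.0 with dex added (log2 change -1.34 ± 0.17, limma adjusted p = 0.000161). Depdc7, Mid1ip1, Lsm5, Cldn1, Tgm1, Tnfaip2, Chad, Paqr9 and Sel1l3 fell by 1.10 to 1.41 on the log2 scale. The call was lost under 11 of 19 alternatives for Lsm5, 12 of 19 for Chad and 8 of 20 for Tgm1.

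The remaining lists held few calls, too few in each to set against the 1.91% over all tested genes. Among acute-phase genes Il6ra, Lcn2 and Serpina3m rose and none fell of 29, Serpina3m sharing 19.1% of its 50-base words with transcripts of related serpins. Among 29 inflammatory and interferon genes Nfkbia, Usp18 and Vcam1 rose and Tnfaip2 fell, a class that glucocorticoids are known to repress. Among clock genes, Ciart and Usp2 rose and Bhlhe40 fell. Dusp1 and Zfp36 rose of 15 immediate-early genes, Ddit4 and Gdf15 of 15 genes of the integrated stress response, Ahr of 23 genes of cytochromes P450 and their receptors, Fkbp5 of 18 genes of steroid action, and Abcb11, the bile salt export pump, fell among 18 bile acid genes. Of these calls, Usp18 and Bhlhe40 were lost under 9 of 20 alternatives, Abcb11 under 8, Gdf15 under 7, Serpina3m and Nfkbia under 5, and Dusp1, Zfp36 and Usp2 under 3. No member was called among 20 heat shock, 24 autophagy and 16 growth hormone genes. With the replicate block, which lost none of the calls in the lists, Atg14 of the autophagy list was higher (0.65, limma adjusted p = 0.0142) and Stat5a of the growth hormone list lower (-0.49, limma adjusted p = 0.0175). The block also adds rises of Hp, Il1r1 and Cebpd among acute-phase genes (0.49, 1.06 and 1.17, limma adjusted p = 0.0342, 0.036 and 0.0014), of Chac1 and Cebpb in the integrated stress response (1.33 and 0.93, limma adjusted p = 0.014 and 0.00697), and of Btg2, Cyp27a1 and Nfil3 (0.83, 0.38 and 0.87, limma adjusted p = 0.048, 0.0208 and 0.0118), with falls of the clock genes Per2 and Nr1d1 (-0.61 and -1.38, limma adjusted p = 0.0298 and 0.00424). Of the 20 heat shock genes, 19 had negative estimates with a median of -0.32, where 7207 of all 11248 genes had negative estimates with a median of -0.06. Hspa1b, at a log2 difference of -1.18 (limma adjusted p = 0.424), shares 62.1% of its 50-base words with Hspa1a.

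**Figure D3:**
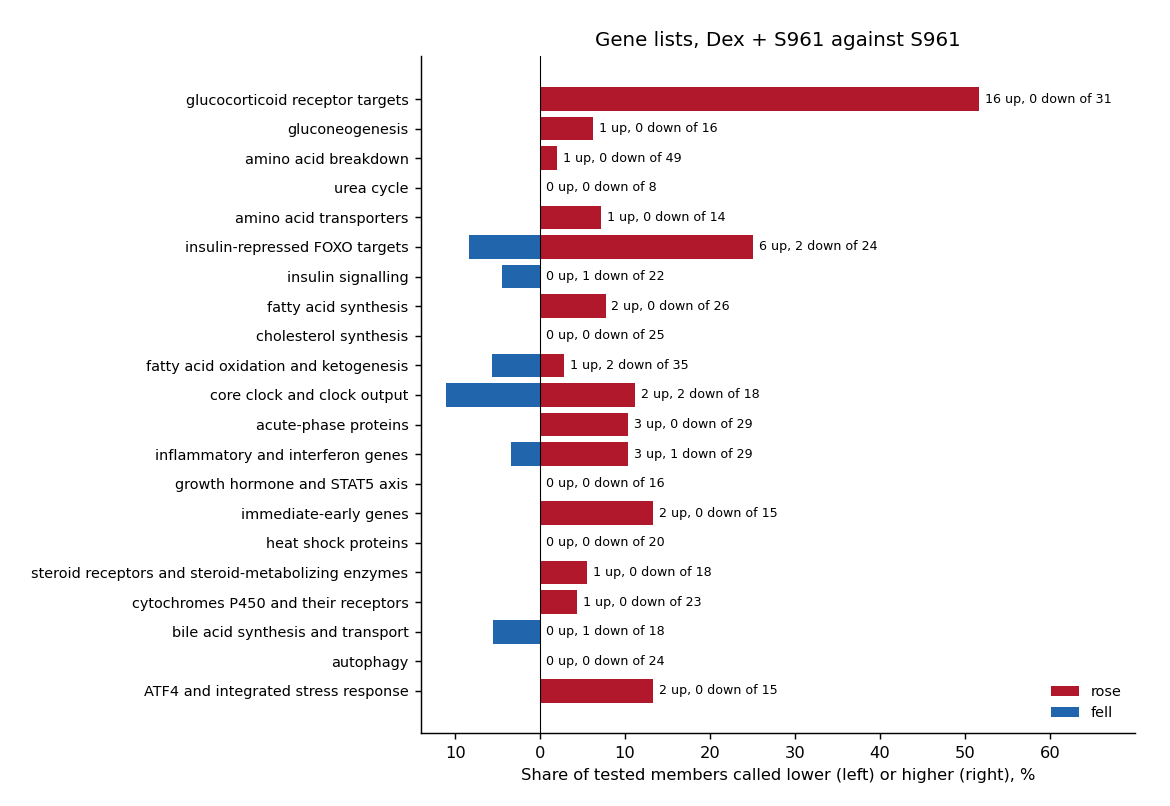
Share of tested members of each of 21 gene lists called higher (red, right) or lower (blue, left) with dex on top of S961, with the counts beside each bar. Of the GR targets 16 of 31 were higher, and in the other lists at most 6 members were higher. Over all tested genes 1.04% were higher and 0.871% lower. The lists were chosen with earlier results of these data known.

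Whether blocking the insulin receptor alters the response to dex is addressed by the difference between the dex effect with S961 and the dex effect without it. Dex against PBS without S961 was measured in 8 other fed mice, where 113 genes rose (1.0%) and 246 fell (2.19%), 3.19% in all. No gene passed the test of the difference (0 called, 0.0%), (4 with replicate 4 of every group left out, and 4 without fed dex replicate 4), while 513 of 11248 had an unadjusted limma p under 0.05 (4.56%). Of the 117 genes that rose with S961 present, 62 were also called higher without S961, which is 53.0% of the former and 54.9% of the latter list. Of the 98 that fell, 52 were also called lower, 53.1% of the former and 21.1% of the latter list. The genes called only with S961 leaned the same way without it. Of 55 such rises, 53 had a positive estimate, with a median of 0.41 against 0.90 with S961, and of 46 such falls, 44 had a negative one. Over all 11248 genes, 3662 estimates without S961 were positive and 7586 negative, with a median of -0.10. The genes called only with S961 were chosen by their value in the S961 mice, so the larger median there is not a finding.

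**Figure D4:**
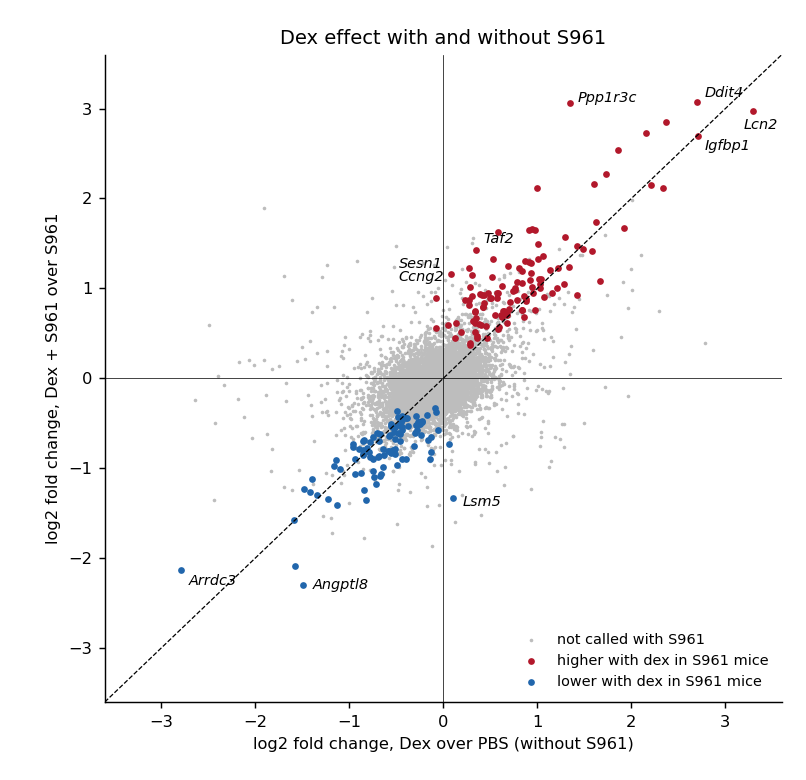
Log2 fold change of dex over PBS (x axis) and of dex + S961 over S961 (y axis) for each tested gene, in separate mice, with the line of equal effect dashed. Of the genes that rose with S961, 115 of 117 lie to the right of 0, Ppp1r3c is above it at 3.06 against 1.34, and 1 gene lies outside the axes.

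Intervals show what the 4 groups of 4 could resolve. The 95% interval of the difference had a median half-width of 0.48 on the log2 scale, 0.54 for the genes that rose and 0.46 for those that fell, and differences well inside that width were not detectable. For Fkbp5 the dex effect was 0.95 with and 0.58 without S961, a difference with an interval of -0.15 to 0.90. For Tat the interval was -0.38 to 0.93, for Igfbp1 -1.66 to 1.65, for Pck1 -0.46 to 0.67 and for Ddit4 -0.48 to 1.23, all including 0. The 3 smallest p-values in each direction belonged to Sesn1 (difference 1.07, interval 0.61 to 1.54), Taf2 (1.08, 0.58 to 1.58) and Clec7a (1.54, 0.81 to 2.27) upward, and to Gm30505 (-0.60, -0.91 to -0.29), Kdsr (-0.56, -0.88 to -0.25) and Mrpl48 (-0.81, -1.28 to -0.35) downward. None of these passed, with limma adjusted p = 1.0 for each of the 6. Sesn1 read 13.5, 19.7, 12.2 and 13.3 RPKM with dex + S961, above 4.89 to 7.61 with S961, and 4.50 ± 0.67 with dex alone against 4.24 ± 0.74 with PBS. Clec7a encodes a receptor of myeloid cells, and the 11 Kupffer cell markers tested had a median difference of 0.52, 4 of them with an unadjusted limma p under 0.05, whose part in the Clec7a value was not tested. Mrpl48 overlaps exons of neighbouring genes, so its value is uncertain. Ppp1r3c had a difference of 1.71 (interval 0.76 to 2.67), and its S961 mean of 12.3 ± 3.12 RPKM lay under the PBS mean of 28.3 ± 15.2. These intervals hold for single genes and are not adjusted for the number of genes.

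The genes called here were then looked up in mice that lack GR in hepatocytes and in unfed mice. In unfed AAV-CRE against AAV-GFP mice, where Nr3c1 fell by 1.58 on the log2 scale (limma adjusted p = 6.83e-05), 519 of 11646 genes were higher (4.46%) and 259 lower (2.22%), 6.68% in all, and 20.1% had an unadjusted limma p under 0.05. Of the 117 genes that rose with dex on top of S961, 114 were tested there, and 50 of them were lower without GR (43.9%) and 1 was higher. Of the 98 that fell, 39 were higher without GR (39.8%) and none was lower. Median log2 changes upon GR loss were -0.56 for the genes that rose and 0.46 for those that fell, beside 0.08 over all genes tested there. Lpin1 fell by 4.50 upon GR loss, Gadd45g by 3.64, Fam107a by 2.66, Fkbp5 by 2.64 and Igfbp1 by 2.62 (limma adjusted p = 6.22e-07, 8.76e-05, 0.0017, 3.83e-05 and 0.0019). Several of the strongest dex responses had no such counterpart: Gadd45b changed by 0.07, Sgk1 by 0.08 and Lcn2 by -0.46, none of them called. Id2 (1.72), Arrdc3 (1.95) and Paqr9 (1.72) were among the falls that were higher without GR.

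In unfed against fed PBS mice, where 65 genes were higher (0.578%) and 287 lower (2.55%), 17 of the 117 rises were higher and none lower (14.5%), and 18 of the 98 falls were lower and none higher (18.4%). The median log2 change was 0.26 for the rises and -0.20 for the falls, against -0.10 over all genes. Igfbp1, Trp53inp1, Tat and Pck1 were higher unfed by 4.08, 1.30, 1.08 and 1.02 (limma adjusted p = 0.00288, 0.0258, 0.0137 and 0.00794). Lcn2 had an estimate of 0.00 and Sgk1 one of -0.12. The highest group mean of the 5 injected groups was that of dex + S961 for 68 of the 117 rises, and the lowest was that of dex + S961 for 50 of the 98 falls, an order that the choice of these genes favours.

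**Figure D5:**
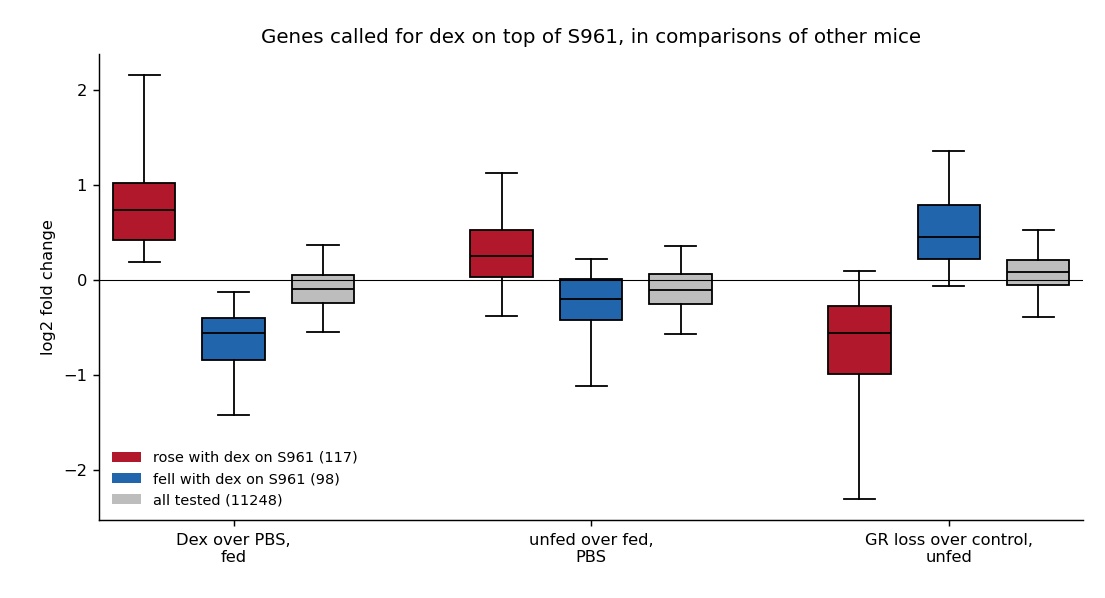
Log2 fold changes, in other mice, of the genes that rose (red) or fell (blue) with dex on top of S961 and of all tested genes (grey), for dex over PBS, unfed over fed, and GR loss over control. Boxes show quartiles with the median and whiskers the 5th to 95th percentile, and upon GR loss the medians are -0.56, 0.46 and 0.08.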

How the data were processed

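The authors deposited 1 table of RPKM values per RefSeq ID, made with STAR on mm9 (the libraries used here are poly(A)-enriched, others in the table ribosome-depleted), and lists of GR, FOXO1 and DNase positions (HOMER, mm9) without scores, per the labels and the methods. DESeq2 is named in the submitters' notes too. From the deposited RPKM values, the ID with the highest mean was kept per symbol (35402 of 35707 IDs had one). limma 3.58.1 (R 4.3.3) with a variance trend was fitted to log2(RPKM + 0.5) over the 20 libraries of injected mice, and separately over the 8 GR fl/fl libraries, for genes averaging 0.5 RPKM or more, with Benjamini-Hochberg adjustment and a threshold of 0.05. Fold changes are on that scale and understate changes of low genes. RPKM values hold no counts. The depth relative to S961 replicate 1 was read from the step of 1 read in 941 to 1029 IDs of 0.02 to 0.12 RPKM.

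Deviations from the group means of same-numbered S961 and dex + S961 libraries correlated at 0.117, 0.113, 0.311 and 0.594 for replicates 1 to 4. Each was over 0.1, so the numbers were taken as a possible pairing of these mice. The blocked fit is given where it changes a call. Dex and PBS mice did not meet this (0.021 to 0.493). In both comparisons the highest value was that of replicate 4, which library numbers put in another series. The part of that series in the correlations of all 4 numbers was not tested, so the block can stand for the series. Beyond this, nothing says that mice of one number belong together.

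The gene lists, the named genes and the comparison itself were chosen with earlier results of these data known. Named genes are the 15 largest rises and falls that were called, with groups apart and a mean of at least 1 RPKM in the higher group, the receptors, Foxo1, Irs1, Irs2 and genes the study names for dex or S961, up to 4 genes of smallest adjusted p per list, and the 3 smallest p-values per direction for the difference. Others (members listed by name only, those called only with the block, and Per1 and Zbtb16) were added after their values were seen. Sequences come from the mm9 genome, annotation from GENCODE M1, and names from RefSeq (GRCm38.p6). The fit was tested on simulated data. Exact tests are two-sided permutations of 4 against 4. Positions are 1-based. Alternatives covered the pseudocount, filter, scaling, rows per gene, trend, libraries fitted, replicate block, library series and each library left out. Some results are not reported here.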

Additional observations from a re-analysis of the deposited data

Results flagged for a closer look

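In 16 of 236 groups of 4 examined among the named genes (6.8%), 1 mouse stood apart from the other 3 by Dixon's test at the 95% level, where about 1 in 20 groups is flagged by chance. In the S961 group, replicate 3 was lowest for Dusp1 (9.54 RPKM, others 19.9 to 20.9), for Klf15 (27.3, others 44.8 to 49.0) and for Nags (22.9, others 25.5 to 25.8), and highest for Ncoa2 (7.98, others 7.11 to 7.25). Replicate 1 was lowest for Cyp17a1 (8.09 RPKM, others 15.7 to 17.99) and Paqr9 (68.3, others 89.7 to 91.9), and replicate 2 highest for Chac1 (2.79, others 0.25 to 0.38). In the dex + S961 group, replicate 1 was highest for Bcl6 (10.9 RPKM, others 2.19 to 2.63), Sgk1 (26.8, others 16.4 to 17.8) and Tnfaip2 (1.42, others 1.16 to 1.18). Replicate 2 was lowest for Cldn1 (1.25 RPKM, others 1.86 to 1.91) and Fkbp4 (27.4, others 33.9 to 34.4) and highest for Kdsr (9.32, others 7.34 to 7.501). Replicate 3 was highest for Hspd1 (73.0 RPKM, others 64.8 to 65.5). Replicate 4 was highest for Dusp1 (55.1 RPKM, others 31.5 to 32.6) and lowest for Fkbp5 (86.0, others 96.2 to 98.1). Cause was not tested for any of them.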

How the results depend on the processing

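Of 60 named genes that were called, 32 kept the call under each alternative run and 0 changed sign. Genes called with dex on top of S961 (215) numbered 112 with the 2 groups fitted alone, 328 RefSeq IDs with every ID kept (212 genes, 211 of them among the 215), 495 with a library series term, 468 with the replicate block for the pairing, and 126 to 220 with 1 mouse left out (133, 134 and 126 without dex + S961 replicate 1, 2 or 4, and 142 without S961 replicate 3). For dex without S961 the same settings gave 87, 545 (IDs, not genes), 1096, 968 and 158 to 537, and 818 without replicate 4 of every group. For the difference of dex effects, 4 genes were called without replicate 4 of every group, and 0 to 4 with 1 mouse left out. Unfed against fed gave 1036 with the series term, 216 with median-ratio scaling, 215 with quantile normalization, 716 without replicate 4, 928 with the replicate block and 86 to 394 with 1 mouse left out. GR loss gave 1344 IDs with every ID kept, 466 with no filter and 391 to 708 with 1 mouse left out. With the 2 groups alone, 8 GR targets and 5 FOXO targets were called, the latter 5 to 8 with 1 mouse left out. Irs2, never called, reversed to 0.0316 under median-ratio scaling, 0.0319 under quantile normalization, 0.0007 with a pseudocount of 0.1, 0.26 without replicate 4 of every group, and 0.16, 0.10 and 0.32 without dex + S961 replicate 1 and S961 replicates 2 and 4, with a range of -0.33 to 0.32 with 1 mouse left out. The endothelial marker level reversed to 0.0383 under median-ratio scaling. GR peaks lay within 20 kb of 76.1% of rises, 50.5% of falls and 30.1% of all genes, and within 100 kb of 96.5%, 73.1% and 65.1%. The causes of these changes were not tested. RPKM values hold no counts, so no counting error is given, and low genes are the least certain.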

Other observations

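Beside the comparison above, 8 gene and setting pairs passed the test for a difference of the dex effect when replicate 4 was left out, chosen here after their values were seen. Without replicate 4 of every group, the difference was 1.58 for Arrdc2, 1.23 for Cyp2c37, 1.00 for Akr1c20 and 0.88 for Aldh1a1 on the log2 scale (limma adjusted p = 0.0484 for each). Without fed dex replicate 4 alone it was 1.55 for Arrdc2, -0.92 for Ces1b, -5.78 for Cyp2a4 (limma adjusted p = 0.0196 for these) and 1.04 for Glul (limma adjusted p = 0.0491). With all mice none of these passed.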
